A study of Homo sapiens with 11 samples.

Results

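The genes considered here encode the proteins of the cytosolic ribosome or proteins related to them, and were measured in 11 PC-3 xenograft tumours. They were chosen by symbol alone, as every RPL or RPS number with or without the suffixes A, X, L, AL or L1, plus RPLP0, RPLP1, RPLP2 and RPSA, which gave 85 of the 25590 genes in the tables. Of these, 77 encode the classical proteins, 31 of the small and 46 of the large subunit. The other 8 are paralogues, that is, genes whose protein is related to a classical one (RPL3L, RPL7L1, RPL10L, RPL22L1, RPL26L1, RPL36AL, RPL39L and RPS27L). PC-3 cells derive from a human prostate carcinoma. They had been grown subcutaneously in male athymic nude mice, which lack mature T cells, and the mice had received intraperitoneal injections of A2M*, the transformed form of the protease inhibitor alpha2-macroglobulin (the A2M group, 6 tumours), or of PBS (the control group, 5 tumours). RNA of each tumour was sequenced as 1 library, and human-specific reads were counted on genes. Tumours are called by group and label number (PBS-123 to PBS-127, A2M-128 to A2M-132 and A2M-112). The labels give no mouse numbers, so that p-values measure the spread between these tumours.

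The ribosome consists of a small subunit, which reads the mRNA, and a large subunit, which joins the amino acids, and each holds ribosomal RNA and a fixed set of proteins, most of them needed in equal numbers. Ribosomal protein mRNAs are among the most abundant of a growing cell and commonly start with a C followed by an unbroken run of pyrimidines, the terminal oligopyrimidine tract, through which mTORC1 controls their translation together with that of several translation factors. Ribosomal protein genes have no single cluster in the genome, and most have left many processed pseudogenes, which makes the assignment of short reads to them uncertain.

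The annotated start of transcription, where the pyrimidine tract lies, was compared between classical members and paralogues. RefSeq (GRCh38.p14) gave a promoter window for 68 of the 85 members, with 84 windows in all because some genes have more than 1 annotated start. A tract, taken as a C at the annotated start followed by at least 4 further pyrimidines, was present in 46 of 62 classical genes (74.2%) and in 1 of 6 paralogues, RPL22L1, whereas 5.14% of all 27305 genes with a window had one. The windows shown cover 15 bases before the annotated start and 15 bases from it on, written along the gene, with the tract in capitals. The classical and paralogous partners are shown because their values are set side by side later, and RPL12, RPSA and RPL4 because they had the smallest p-values between the groups.
RPS27 (chr1:153990747-153990776, plus strand): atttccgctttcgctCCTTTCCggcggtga
RPS27L (chr15:63157463-63157492, minus strand): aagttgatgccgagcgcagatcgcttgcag
RPL26 (chr17:8383179-8383208, minus strand): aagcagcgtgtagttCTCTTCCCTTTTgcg
RPL26L1 (chr5:172958714-172958743, plus strand): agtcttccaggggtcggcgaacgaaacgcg
RPL22 (chr1:6199581-6199610, minus strand): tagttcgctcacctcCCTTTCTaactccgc
RPL22L1 (chr3:170870181-170870210, minus strand): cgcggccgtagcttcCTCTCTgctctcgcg
RPL36A (chrX:101390996-101391025, plus strand): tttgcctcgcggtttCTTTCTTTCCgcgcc
RPL36AL (chr14:49620612-49620641, minus strand): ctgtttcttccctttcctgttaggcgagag
RPL7L1 (chr6:42879601-42879630, plus strand): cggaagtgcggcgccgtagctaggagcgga
RPL12 (chr9:127451392-127451421, minus strand): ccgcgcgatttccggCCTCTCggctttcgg
RPSA (chr3:39406705-39406734, plus strand): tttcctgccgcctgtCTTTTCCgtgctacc
RPL4 (chr15:66504841-66504870, minus strand): tacagcgggagtggtaagcacttccttttc
RPL39L had no annotated window, and none is shown for RPL7. In RPS27, RPL26, RPL22 and RPL36A the tract ran from the annotated start, and RPL4 had none at the annotated base. The letters CCGGAAG, a core of ETS family binding sites searched on both strands of the window of 250 bases before and 50 bases after the start, were found in 35.5% of classical genes and 12.2% of all genes with a window. For AAGATGG, a core of YY1 sites, the shares were 12.9% and 7.11%, and for TATAAA between 40 and 16 bases before the start they were 3.23% and 2.9%. A match is a description of the letters and not of binding.

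Ribosomal protein mRNAs made up a large part of the RNA of these tumours. The classical members had a median of 705 RPKM (reads per kilobase of exon and 1e+06 reads, the mean over 11 tumours), while the median of the 16630 genes tested was 6.55 RPKM, and 50 of the 100 genes with the highest RPKM were members. The highest level was that of RPL41, which encodes a very short peptide of the large subunit, with a mean of 2481 RPKM ± 385 (SD, n = 11). Among the members with the highest levels were also RPL30 with 1979 ± 183 RPKM, RPL7 with 1754 ± 162, RPL8 with 1718 ± 236 and RPL39, a protein of the exit tunnel, with 1696 ± 208. RPL7, RPL8 and RPL39 differed from each other by less than the SD of any of them over the tumours. In all, 72 of the 77 classical genes reached 100 RPKM.

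The 5 classical genes under 100 RPKM were RPL28 with 99.7 RPKM, RPS10 with 21.0, RPL17 with 10.7, RPL36A with 5.09 and RPL21, which was listed at 0 in every tumour. The tables divide by all annotated exons of a gene, and these were 5183 bases for RPL28, against a median of 843 for the members. RPS10, RPL17 and RPL36A share exons with annotated read-through genes (84.0%, 96.9% and 43.8% of their exon bases in GENCODE on GRCh37), and these read-through genes were also listed at 0 in every tumour. How many reads this overlap removed was not tested. In all, 15 members shared more than 10% of their exon bases with another gene, among them RPL10 with DNASE1L1 (50.7%) and RPL30 with its antisense gene (51.4%), and since no strand setting is stated, reads of such partners cannot be told apart. The 30 listed ribosomal protein pseudogenes held 0.0669% ± 0.00424 of the reads in the PBS group (SD, n = 5) and 0.0612% ± 0.00449 in the A2M group (SD, n = 6).

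**Figure D1:**
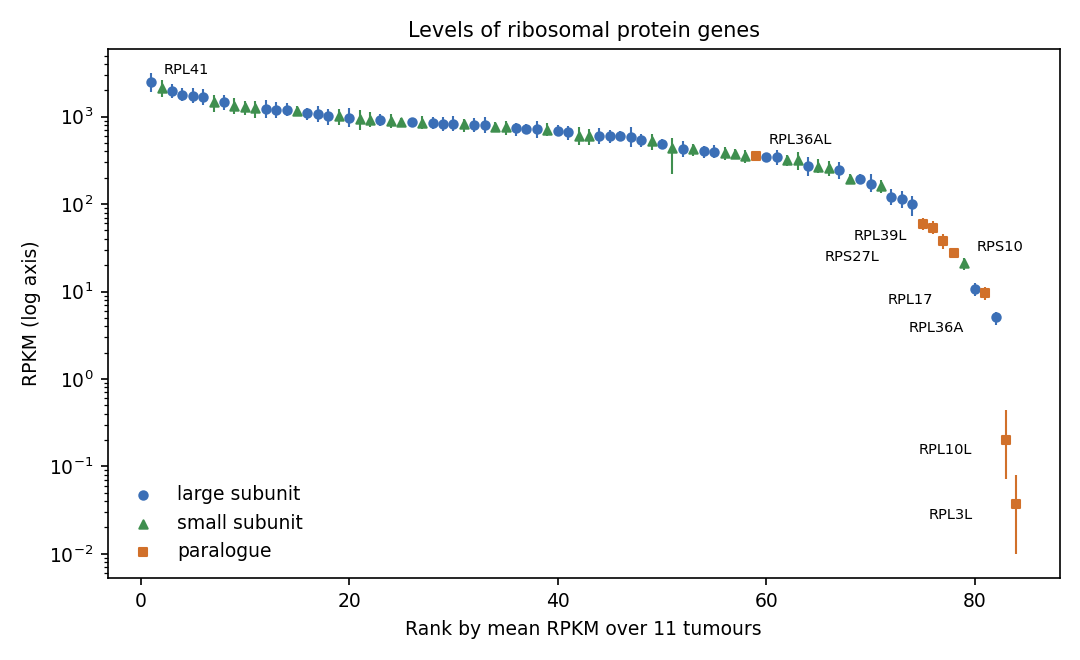
Mean RPKM over 11 tumours (log axis) of the 84 members with any read, ordered by level, with vertical lines from the lowest to the highest tumour (ending at 0.01 RPKM where the lowest tumour was at 0) and symbols for the small subunit, the large subunit and the paralogues. Most classical members lie between 100 and 2481 RPKM, RPL36AL is the only paralogue among them, and RPL10L and RPL3L lie below 1 RPKM.

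The paralogues were expressed at a small part of the level of their classical partners, with RPL36AL as the exception. Of these, RPL3L, a muscle gene, had at most 4 counts in a tumour, and RPL10L, a testis gene, at most 10, so that they were too low to test. RPL7L1 stood at 37.7 RPKM, RPL26L1 at 59.7, RPL39L at 53.4, RPS27L at 27.8 and RPL22L1 at 9.65 RPKM (means over 11 tumours), and RPL36AL at 352 RPKM. The level of RPL36AL was 7052% of that of RPL36A in the PBS group. This ratio of RPKM rests on the low value listed for RPL36A, whose exons are shared as described above. It also depends on the exon lengths used, 2911 bases for RPL36A and 577 for RPL36AL.

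Summed over the members, the groups differed by about the spread between tumours of a group. Members took 5.12% of all counted reads in PBS-123, 5.34% in PBS-124, 6.02% in PBS-125, 4.97% in PBS-126 and 5.14% in PBS-127. In the A2M group the share was lowest in A2M-112 with 4.25%, the median was 4.88% and the highest share was 5.60% in A2M-132. The groups overlapped, and 3 A2M tumours lay below the lowest PBS tumour. The means were 5.32% ± 0.414 (SD, n = 5) for PBS and 4.86% ± 0.474 (SD, n = 6) for A2M, a ratio of 0.915, while the highest share over all tumours was 1.42 times the lowest. Without the tumours at both ends, PBS-125 and A2M-112, the means were 5.14% ± 0.153 (n = 4) and 4.99% ± 0.409 (n = 5), a ratio of 0.970. In bulk RNA, fewer cells of a kind and less RNA per cell cannot be told apart. Summed RPKM of the small subunit over that of the large was 0.641 ± 0.00394 in PBS and 0.645 ± 0.0132 in A2M tumours.

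**Figure D2:**
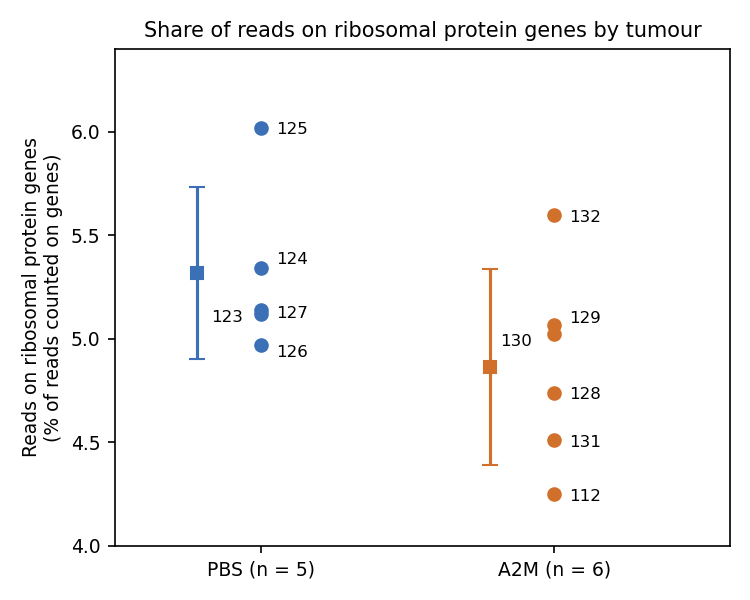
Reads on the 85 ribosomal protein genes in percent of all reads counted on genes, with 1 labelled point per tumour and squares with bars for the group mean ± SD; the axis starts at 4%. The 5 PBS tumours lie between 4.97% and 6.02% and the 6 A2M tumours between 4.25% and 5.60%, so that the groups overlap.

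Between A2M and PBS, no single ribosomal protein gene passed the test, although nearly all had lower values in the A2M group. Of the 82 members that could be tested, 0 had an adjusted p under 0.01 (edgeR's quasi-likelihood test with Benjamini-Hochberg adjustment over 16630 genes; 0.0% of all genes did), and DESeq2 and limma-voom also gave 0. The smallest adjusted p of a member was 0.599. The log2 fold change was below 0 for 79 of 82 members (96.3%), compared with 50.6% of all genes, and this included all 76 classical members tested (75 with library-size scaling). Its median was -0.16, a fold of 0.898, against -0.0021 for all genes, and the values lay between -0.26 and 0.11 with standard errors between 0.0585 and 0.211. The median was -0.15 for the small and -0.17 for the large subunit. At an unadjusted p under 0.05, 27 members (32.9%) were lower and 0 higher, 10 of 31 in the small and 17 of 45 in the large subunit; over all genes these shares were 3.53% lower and 3.55% higher. As the members vary together from tumour to tumour, these 27 genes are not 27 separate observations.

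The count at this unadjusted threshold depended on single tumours. It was 3 without PBS-125, 8 without A2M-112, 11 without A2M-131, 13 without PBS-124 and 15 without A2M-128, but 50 without A2M-132, of which 49 were lower. Without both PBS-125 and A2M-112, a choice made after seeing the data, 1 member was left, the median log2 fold change of the members was -0.07, and 74 of 82 members, 70 of the 76 classical ones among them, were below 0. Scaling by library size alone instead of TMM left 8 members, and under it all genes had a median of 0.04 and the members of -0.11. The shares of all genes at this threshold under these alternatives are not given here. From the counts of members alone, a change among them cannot be told apart from a change over all genes.

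**Figure D3:**
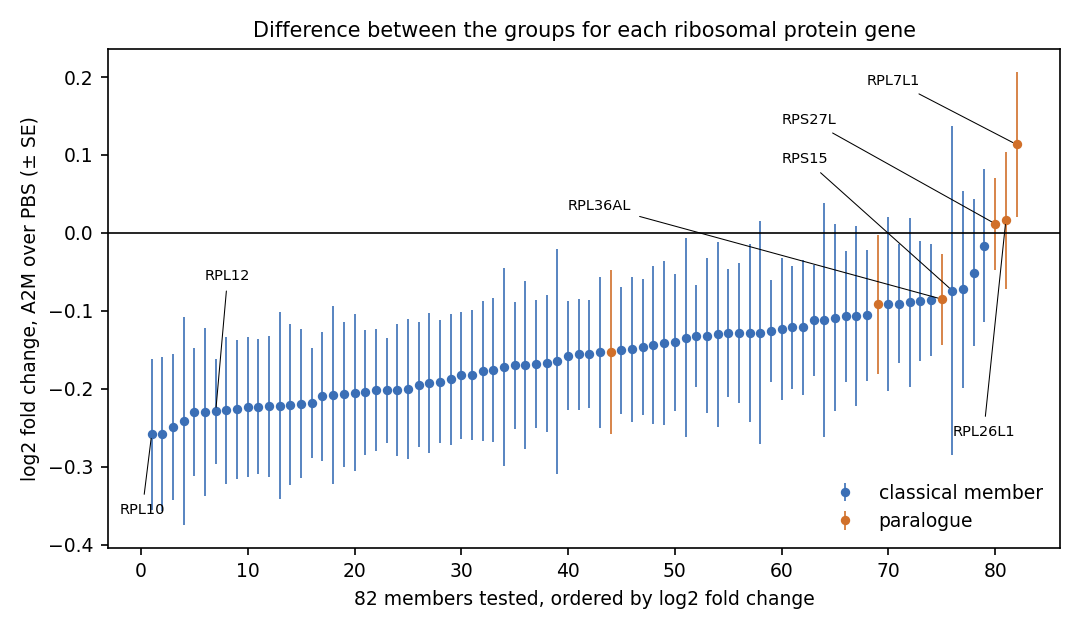
Log2 fold change of A2M over PBS (vertical axis, edgeR fit, bars ± SE) for the 82 members tested, in order of size (horizontal axis), with paralogues in orange. All 76 classical members lie below 0 (75 with library-size scaling), between -0.26 for RPL10 and -0.02, and the 3 values above 0 are the paralogues RPS27L, RPL26L1 and RPL7L1, while no member passed the adjusted threshold.

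The member with the smallest p was RPL12, a protein at the base of the stalk of the large subunit that recruits translation factors. Its level was 478, 505, 554, 463 and 453 CPM (normalised counts per 1e+06 counts) in PBS-123 to PBS-127, and between 392 and 439 CPM, median 423, in the A2M group. Every A2M tumour lay below every PBS tumour. The log2 fold change was -0.23 (SE 0.0678, adjusted p = 0.599 in edgeR), and -0.16 without PBS-125 and A2M-112. RPLP0, which forms the stalk with RPLP1 and RPLP2, had a log2 fold change of -0.23 (SE 0.0944). For RPLP1 it was -0.07 (SE 0.126), or 0.02 without PBS-125 and A2M-112, and for RPLP2 -0.13 (SE 0.143).

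RPSA, a small-subunit protein also known as the laminin receptor, was at 855, 901, 998, 820 and 811 CPM in PBS-123 to PBS-127 and between 699 and 799 CPM, median 756, in the A2M group. Its groups did not overlap either, with a log2 fold change of -0.22 (SE 0.0702, adjusted p = 0.640 in edgeR). Reads of its transcribed pseudogenes may be shared with it, and RPSAP58 alone held between 4070 and 10279 counts per tumour. The third member without overlap was RPL15 (-0.16, SE 0.0692), which was picked after its values were seen. These 3 of 82 members were 3.66%, against 0.325% of all genes without overlap and lower in A2M tumours.

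RPL4, which lines the exit tunnel, was at 897, 906, 1037, 949 and 828.6 CPM in the PBS tumours and between 770 and 835 CPM around a median of 805 in the A2M tumours. PBS-127 lay just below the highest A2M tumour. Its log2 fold change was -0.20 (SE 0.0672). RPL12, RPSA and RPL4 were also the 3 members whose p was no higher than 0.01 with edgeR and with DESeq2, a limit that 241 genes met. RPL23 and RPL29 had log2 fold changes of -0.23 (SE 0.0821) and -0.25 (SE 0.0932), and the value farthest below 0 was that of RPL10, which is added late in the maturation of the large subunit (-0.26, SE 0.0970). In RPL10, RPL23 and RPL29 the groups overlapped.

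For members with known roles outside the ribosome or in its control, values were of the same size. RPL5 and RPL11, which also act outside the ribosome when its assembly is disturbed, had log2 fold changes of -0.16 (SE 0.0713) and -0.21 (SE 0.0932). RPS6, the substrate of the S6 kinases, was at 830, 912, 1041, 836 and 835 CPM in the PBS tumours and between 676 and 903 CPM around a median of 781 in the A2M tumours. The log2 fold change was -0.18 (SE 0.0898). RPS6 levels overlapped between the groups, with A2M-132 above 3 of the 5 PBS tumours.

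Of the 6 paralogues tested, 3 had log2 fold changes above 0 and 3 below. RPL7L1 was at 42.5, 45.5, 43.1, 49.5 and 49.3 CPM in the PBS tumours and between 38.1 and 56.3 CPM around a median of 49.7 in the A2M tumours. The log2 fold change was 0.11 (SE 0.0930, adjusted p = 0.864 in edgeR). Its lowest tumour was A2M-132 and its highest A2M-131, of which the former was high and the latter low in the classical members. RPS27L had the smallest spread of all members, with a mean CV within the groups of 3.85%, and a log2 fold change of 0.01 (SE 0.0590), which was -0.01 without PBS-123. For RPL26L1 it was 0.02 (SE 0.0876), with values between -0.03 and -0.01 without PBS-125, PBS-127 or A2M-131. RPL36AL (-0.08, SE 0.0585), RPL22L1 (-0.09, SE 0.0887) and RPL39L (-0.15, SE 0.105) had values below 0. No paralogue passed at an unadjusted p under 0.05.

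Expressed as a percentage of the classical partner, RPL7L1 was 1.93% ± 0.252 of RPL7 in PBS and 2.38% ± 0.428 in A2M tumours (ratio of RPKM, SD, n = 5 and 6). RPS27L was 1.79% ± 0.133 and 2.003% ± 0.199 of RPS27, and RPL26L1 6.72% ± 1.33 and 7.47% ± 1.28 of RPL26. For RPL22L1 the ratios were 2.78% and 2.82% of RPL22, and for RPL39L 3.16% in both groups. In all of these ratios the groups overlapped.

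The classical members formed a common profile over the 11 tumours. For each gene, log2 CPM was set against its own mean, and the 76 classical members tested were averaged. In PBS-125 all 76 lay above their own means, with a median deviation of 0.31, and in PBS-124 75 did, with a median of 0.14. In A2M-132, 68 lay above, with a median of 0.12. At the other end, 1 of 76 lay above its own mean in A2M-131 and in A2M-112, with medians of -0.21 and -0.25, and 4 of 76 in A2M-128. PBS-123, PBS-126, PBS-127, A2M-129 and A2M-130 lay near the middle, with between 24 and 51 above. The order of the tumours thus ran across both groups.

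The Pearson correlation of a classical member with the mean of the others over the 11 tumours had a median of 0.907 and was over 0.8 for 69 of 76 genes. Over all genes tested the median r with the profile was 0.004, and 2.05% were over 0.8. Within the groups, after the group means were removed, the median was 0.901, and over the 9 tumours left without PBS-125 and A2M-112 it was 0.850. These values are descriptions, since all points share the library, its depth and its base composition. The 2 lowest were RPL36A with -0.20, whose listed level is low as given above, and RPS15 with 0.44.

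RPS15, a small-subunit protein near the decoding centre, also had the widest spread of all members. It was at 246, 239, 277, 116 and 307 CPM in the PBS tumours and between 154 and 279 CPM around a median of 231 in the A2M tumours. PBS-126 and A2M-130 were its lowest tumours in each group. Over the 14627 genes tested that had a GC value, these were also the tumours in which levels declined most with GC content (Spearman's rho across genes, -0.641 and -0.627, against 0.524 in PBS-127). Its log2 fold change was -0.07 (SE 0.211), but 0.04 without PBS-127, 0.02 without A2M-130 and 0.04 with GC and length removed. The mean CV within the groups was 26.3% for RPS15, 19.5% for RPL28, 18.8% for RPLP2 and 18.8% for RPS28, with a median of 10.3% over the members tested and 8.99% over the 509 other genes of at least 100 RPKM. Across the classical members, the CV was related to GC content with a Spearman's rho of 0.404 (n = 76 genes, which are not independent).

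The common profile was also computed with GC content and exon length removed. With both taken out per tumour by a fit to the genes that are not members, an alternative added after seeing the data, the median deviation of the members was 0.26 in PBS-125 and -0.20 in A2M-112, compared with 0.31 and -0.24 before. In that fit, 77 of 82 members had a log2 fold change below 0, with a median of -0.13, and 23 were lower at an unadjusted p under 0.05. The share of all genes at that threshold in this fit is not given here.

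**Figure D4:**
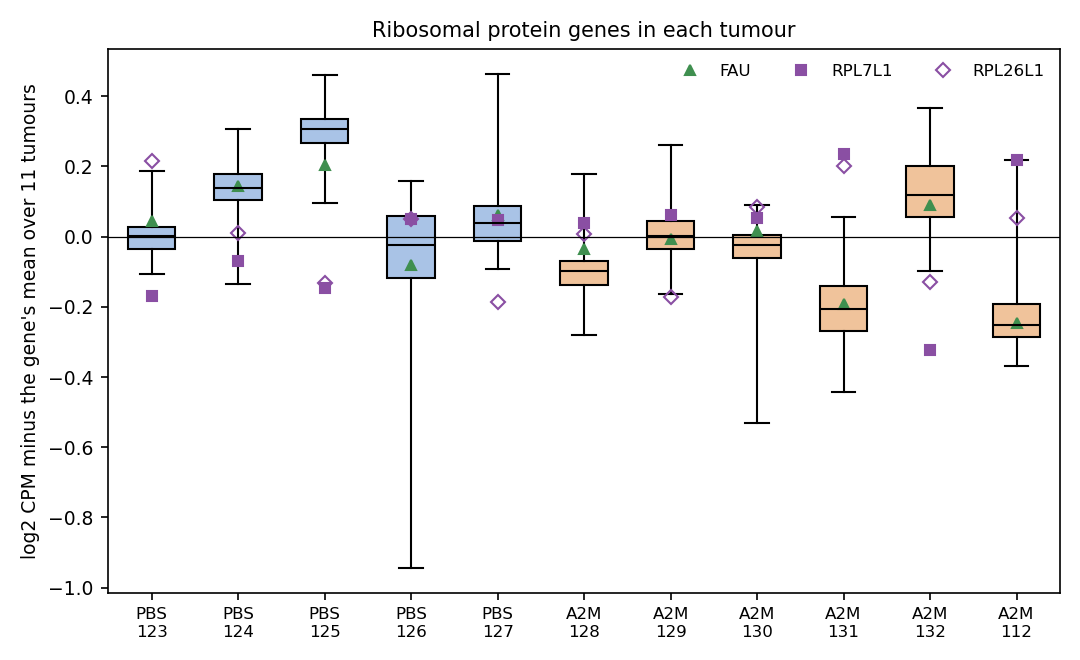
Deviation of log2 CPM from each gene's mean over 11 tumours (vertical axis) in each tumour (horizontal axis), with boxes for the quartiles and median of the 76 classical members and lines to their lowest and highest values (PBS blue, A2M orange), and symbols for FAU, RPL7L1 and RPL26L1. The boxes are highest in PBS-125 and lowest in A2M-112, FAU lies within or near the boxes, and RPL7L1 lies below the box in PBS-125 and A2M-132 and above it in A2M-131 and A2M-112.

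FAU, a ribosomal protein gene outside the symbols used here, had a like profile. It encodes a small-subunit protein fused to a ubiquitin-like peptide. Over the 11 tumours it had r = 0.961 with the profile, and its log2 fold change was -0.14 (SE 0.0764). Among the paralogues, r was 0.81 for RPL36AL, 0.77 for RPL39L, 0.40 for RPS27L, 0.03 for RPL22L1, -0.57 for RPL26L1 and -0.79 for RPL7L1. Classical members with and without a tract at the annotated start had like values, with a median log2 fold change of -0.15 for the 45 with a tract and -0.17 for the 16 without. In some of the latter, RPL4 among them, a run of pyrimidines lies a few bases after the annotated start. The split thus follows the annotated base and cannot separate mRNAs that start with a tract from those that do not.

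Among the 6541 genes of at least 10 RPKM, the 10 outside the members with the profile most like theirs were the pseudogene RPL13AP20 (r = 0.977), GID8 (0.967), FAU, NPC2 (0.950), TOMM7, BLCAP, PRDX5, COMMD6, SAT2 and the elongation factor EEF1G (0.927, n = 11 tumours). RPL13AP20 may carry reads of RPL13A, which it resembles. Their log2 fold changes between the groups lay between -0.27 for BLCAP and -0.11 for GID8, and no adjusted p was under 0.01.

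Of 17 translation factors and other genes whose mRNAs are known for a terminal oligopyrimidine tract, all 17 had lower values in the A2M group. Of all genes, 50.6% did. The median log2 fold change of the 17 was -0.13. At an unadjusted p under 0.05, 4 of the 17 were lower, against 3.53% of all genes. None passed the adjusted threshold. TPT1, the translationally controlled tumour protein, had -0.24 (SE 0.0916), EIF3L, a subunit of the initiation factor eIF3, -0.17 (SE 0.0696) and EEF1B2, the exchange factor of elongation factor 1, -0.14 (SE 0.0617). Their median r with the ribosomal protein profile was 0.713. Without PBS-125 and A2M-112, 16 of 17 were below 0.

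Of 51 ribosome biogenesis genes, which build ribosomes, 40 had a log2 fold change above 0 and 11 below, with a median of 0.07, where 50.6% of all genes were below 0. With library-size scaling, which moves the median of all genes to 0.04, 48 were above 0. At an unadjusted p under 0.05, 4 were higher and 1 lower (3.55% and 3.53% of all genes), and 0 had an adjusted p under 0.01 in edgeR. GRWD1, a chaperone of ribosomal proteins, had 0.24 (SE 0.0880), RRS1, an assembly factor of the large subunit, 0.30 (SE 0.120) and POLR1A, the largest subunit of RNA polymerase I, which transcribes ribosomal RNA, 0.25 (SE 0.102). POLR1A was at 57.8 ± 5.98 CPM in PBS (SD, n = 5) and 68.9 ± 9.63 in A2M tumours (SD, n = 6). The median r of the 51 genes with the ribosomal protein profile was -0.574, and for 30 of them it was under -0.5. The number of the 51 above their own means was 41, 21, 10, 23 and 5 in PBS-123 to PBS-127 and 43, 19, 36, 44 and 7 in A2M-128 to A2M-132, and 35 in A2M-112. It was lowest in PBS-127, where the classical members lay near the middle, and A2M-112, their lowest tumour, did not have the highest number.

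For the mTORC1 and cap-binding genes, which act on the translation of these mRNAs, 10 of 13 tested were below 0 and 3 above, with a median of -0.03. With TMM scaling, 50.6% of all genes were below 0. With library-size scaling, 5 of the 13 were below and 8 above, and their median was 0.02. EIF4EBP1, the repressor of the cap-binding protein eIF4E, had a log2 fold change of -0.27 (SE 0.0925, adjusted p = 0.640 in edgeR), RPS6KB2, a kinase of RPS6, -0.16 (SE 0.0742) and EIF4G1, the scaffold of the cap complex, 0.11 (SE 0.0734). Mitochondrial ribosomal protein genes serve a separate ribosome. Of 77 listed, 76 were tested, and 40 were below 0 (50.6% of all genes were), with a median log2 fold change of -0.01. At an unadjusted p under 0.05, 1 was lower and 2 were higher (3.53% and 3.55% of all genes). Their median r with the profile was 0.041.

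**Figure D5:**
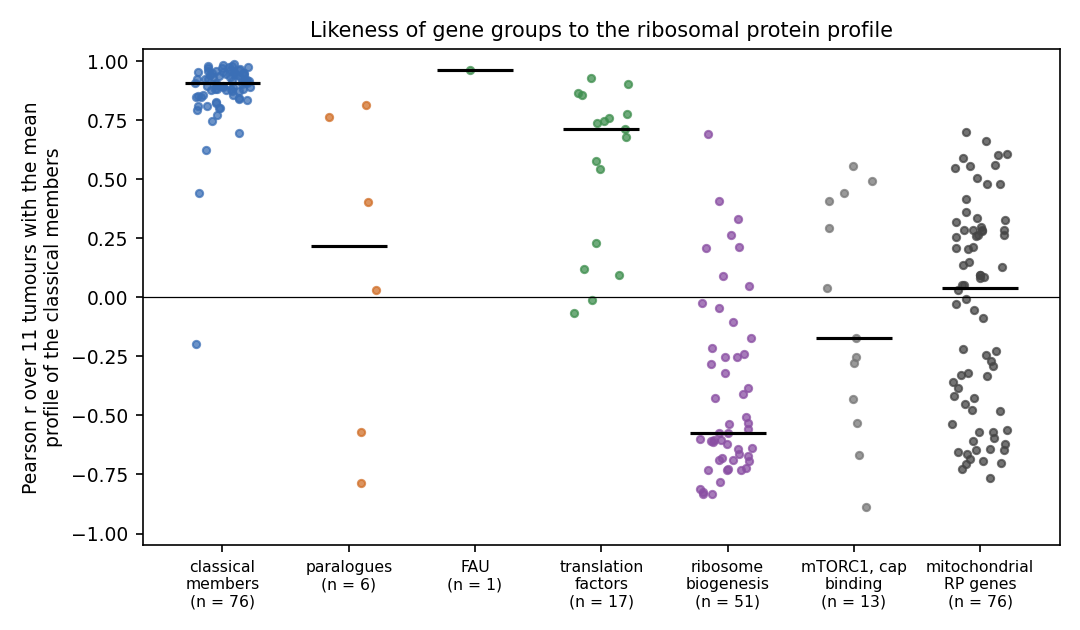
Pearson r over 11 tumours (vertical axis) of each gene with the mean profile of the classical ribosomal protein genes, grouped by list, with 1 point per gene and a line at each median; classical members were set against the mean of the others. The medians were 0.907 for classical members, 0.713 for translation factors, -0.574 for ribosome biogenesis and 0.041 for mitochondrial ribosomal protein genes (RP genes).

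The tumour cells were checked by their markers. KRT8, KRT18, EPCAM, VIM, CD44 and MSMP, which mark PC-3 cells, had means between 72.6 and 9440 RPKM, while the prostate gene KLK3 had 0 counts in every tumour and KLK2 at most 1. Totals lay between 16958533 and 35874381 counts. As a check for a library entered more than once, the member counts of the 55 pairs of tumours were compared, and chi-square over its degrees of freedom was 12.2 or more, where copies of 1 library would give about 1 or less. The 16 markers of host cells together gave between 342 and 689 RPM in PBS and between 344 and 947 RPM in A2M tumours, of which COL1A1 made up 90.1%. COL3A1 had between 224 and 1247 counts and PECAM1 between 238 and 803, and AIF1, DCN and HBA1 had at most 3 counts in any tumour. Their part in the differences of the members was not tested.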

How the data were processed

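The authors prepared libraries with the Illumina TruSeq RNA kit v2, extracted reads with BCL2FastQ 1.8.4, separated human from mouse reads with xenome, mapped the human reads with TopHat2 to hg19 and used featureCounts with RefSeq genes. The counts are deposited as whole numbers per gene, with no normalization. The deposited RPM values divide them by the total of each tumour, in units of 1e+06 reads, and the deposited RPKM values also by exon length. Strand settings are not given in the sources used here.

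Counts were filtered with filterByExpr, scaled with TMM and tested by treatment with edgeR 4.0.16 (quasi-likelihood, Benjamini-Hochberg, threshold 0.01) in R 4.3.3, without covariates. The standard error is the log2 fold change divided by the square root of F. Log2 CPM used a prior count of 2. The group tests of edgeR, DESeq2 and limma-voom were tried on simulated counts, with changes larger than those of the members. The other steps were not tried on simulated data. At the deposited totals, 3 counts equalled 0.0836 to 0.177 RPM, a limit that covers counting error only. The members and gene lists were chosen with earlier results of these data known.

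Genes were named by rule: the 6 highest and 4 lowest tested members by RPKM, the 5 with the smallest p in each direction (3 had values above 0), paralogues and partners, RPLP0, RPLP1, RPLP2, RPSA, RPL5, RPL11 and RPS6, the 4 with the largest CV, FAU, the 10 genes most like the members by Pearson r and 3 genes per list. Some genes that the rule names are not reported here. Alternatives were other scalings and filters, DESeq2 1.42.0, limma-voom (limma 3.58.1), each tumour left out and, added after seeing the data, PBS-125 and A2M-112 both left out, and GC and length offsets (splines with 5 degrees of freedom, 14627 genes). Promoter windows are from RefSeq, exon overlaps from GENCODE on GRCh37. Python 3.11.15 with matplotlib 3.10.9 made the figures.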

Additional observations from a re-analysis of the deposited data

Results flagged for a closer look

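Of 114 groups of tumours examined, 1 for each treatment of every named gene tested and of the summed values, 5 had a tumour that stood apart from the others of its group by Dixon's test, where chance gives about 5.70. RPL23 was at 444 CPM in PBS-125 and between 347 and 372 in the other PBS tumours. BLCAP was at 341 CPM in PBS-125, against 231 to 249. TOMM7 was at 126.9 CPM in A2M-132, against 93.5 to 103. The translation factor EIF3L was at 190 CPM in A2M-129, against 163 to 173 in the other A2M tumours, and the assembly factor RRS1 at 36.1 CPM in PBS-123, against 24.1 to 27.3.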

How the results depend on the processing

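No member passed the adjusted threshold under any alternative run, a threshold of 0.05 included. DESeq2 called 1 gene that is no member. With a limit of 0.01 on the unadjusted p of edgeR and DESeq2 alike, 241 genes and 3 members were found. The 27 members at an unadjusted p under 0.05 became 8 with library size only and between 3 and 50 with 1 tumour left out. With PBS-125 and A2M-112 both left out, 1 remained. The shares of all genes under these settings are not given here, so the counts alone do not set the members apart from all genes. Over all alternatives, the median log2 fold change of the members lay between -0.21 and -0.07. Of 1080 values of single named genes under the alternatives, 10 changed sign, all for 4 genes. With 1 tumour left out, RPS27L lay between -0.014 and 0.033, RPL26L1 between -0.027 and 0.076 and RPS15 between -0.25 and 0.037. With PBS-125 and A2M-112 both left out, RPL26L1 was -0.021, RPLP1 0.022 and RPS15 0.010, and with GC and length offsets RPS15 was 0.039. Their causes were not tested. The ratio of the small to the large subunit and those of paralogues to partners moved by less than 1 SD under the alternatives run. No paired analysis was possible because the groups share no tumour numbers. Depth limits RPL3L and RPL10L, which had at most 4 and 10 counts.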

Other observations

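Outside the lists, SPRED2, an inhibitor of Ras signalling (r = -0.924), FIP1L1, a polyadenylation factor (-0.907), UBE2Q1 (-0.898) and EP300, a histone acetyltransferase (-0.897), were among the genes of at least 10 RPKM whose profile over the 11 tumours was most opposite to that of the classical ribosomal protein genes. They were chosen after their values were seen. SPRED2 was at 78.1, 70.2, 69.8, 81.97 and 81.1 CPM in PBS-123 to PBS-127 and between 75.01 CPM in A2M-132 and 98.6 CPM in A2M-131. The log2 fold changes of these genes between the groups lay between 0.06 for FIP1L1 and 0.16 for SPRED2, and none passed the adjusted threshold in edgeR.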
